A study of Homo sapiens with 4 samples.

Results

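The 30 genes described here make cholesterol and fatty acids, or control that synthesis. They were chosen by symbol from textbook roles, with earlier results of these data known. All 30 were found among the 58740 genes of the deposited gene table. They fall into 17 enzymes of the sterol route, 4 regulators and sterol carriers (SREBF1, SREBF2, INSIG1 and STARD4), and 9 enzymes of fatty acid synthesis. RNA sequencing was run on spheroids of 4 established human colon lines, and the study compared the 3 cancer lines with the non-cancerous one. HCEC-1CT comes from normal colon and was immortalised with CDK4 and TERT; its label reads epithelial cell. HCT116 and DLD-1 derive from colorectal carcinomas, and SW620 from a lymph node metastasis. The labels give all 4 as WT and name no treatment: each was kept for 7 days on low-attachment plates (24 wells) with 10% serum, which itself carries lipids. Each line is 1 library, made from spheroids picked by eye and pooled over a pair of plates, so there is no spread between replicates and no test.

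Cholesterol is built from acetyl-CoA through mevalonate and squalene, and squalene is closed into lanosterol, which a last series of enzymes trims to cholesterol. Fatty acids start from the same acetyl-CoA, which is carboxylated, chained into palmitate, then lengthened and desaturated. The factors encoded by SREBF1 and SREBF2 switch on most of these genes. They are made as membrane proteins bound to SCAP, and when sterols are plentiful INSIG proteins hold the complex in the endoplasmic reticulum. When sterols run short the complex moves to the Golgi, where proteases free the active factor. Because INSIG1 is itself switched on by these factors, its transcript is usually read together with the enzymes.

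Levels are in FPKM, fragments scaled to gene length and library size, and every series of 4 values runs HCEC-1CT, HCT116, DLD-1, SW620. A ratio is the log2 difference of FPKM + 1 between a cancer line and HCEC-1CT, given in the order HCT116, DLD-1, SW620. Higher and lower mean a difference of 2-fold or more on that scale. The pseudocount understates every change, most of all near 1 FPKM. A gene short of 2-fold on that scale can thus pass it in plain FPKM, and folds given as times are of plain FPKM. The background is the 18637 genes with at least 1 FPKM in at least 1 library, and all 30 genes passed that filter. Over this background the median log2 ratio was 0.27, 0.33 and 0.21, a shift that every ratio below includes.

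The HCEC-1CT library did not carry the markers of its label. Of 9 epithelial genes, 2 reached 1 FPKM and 4 were listed at 0 (EPCAM, CDH1, KRT19 and DSP), with a sum of 7.87 FPKM against 1668, 5540 and 6820 in the cancer lines. Its 9 fibroblast genes, all at 5.67 FPKM or more, summed to 1079 FPKM, against 12.7, 1.46 and 28.0. The 8 proliferation genes summed to 19.0, 169, 340 and 124 FPKM, with all 8 above their HCEC-1CT level in every cancer line. Mitochondrial messages took 1.70, 10.5, 3.29 and 3.84% of all FPKM. Adipocyte and hepatocyte genes, 8 in all, summed to 0.281, 0.446, 0.790 and 7.75 FPKM, with ALB, APOA1 and ADIPOQ at or near 0 in every library. The lipid droplet gene CIDEC, at 7.48 FPKM in SW620, made up most of the sum there. It was the 1 of the 8 to reach 1 FPKM, and in SW620 only. These differences move with the line in every comparison below, and their part in it was not tested; line, cell identity and growth cannot be told apart with 1 library each. In RNA from whole spheroids, a different share of cells and a different level per cell cannot be told apart either.

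The lipid synthesis genes stood higher in the cancer lines than in HCEC-1CT, and highest in DLD-1. At 2-fold, 15 of the 30 were higher and 4 lower in HCT116, where 26.9% and 13.1% of all genes were. In DLD-1 22 were higher and 3 lower (background 25.9% and 12.9%), and in SW620 19 and 3 (24.8% and 14.1%). The median log2 ratio of the 30 was 0.99, 2.20 and 1.15. Higher in all 3 lines were 10 genes, against a background of 9.35% (13.2% of protein-coding genes with a mean of at least 5 FPKM): the sterol enzymes HMGCS1, MVK, IDI1, FDFT1, SQLE, TM7SF2, MSMO1, SC5D and DHCR7, and the desaturase SCD. Scaling the libraries by median ratios, which puts the median gene near 0, left 6 of these 10, without HMGCS1, SC5D, SCD and SQLE, and brought the higher counts to 10, 21 and 13. That scaling also evened the background, to 20.6% higher and 18.0% lower in HCT116, 19.3% and 16.7% in DLD-1, and 20.6% and 17.8% in SW620. On the TPM scale 9 of the 30 were higher in HCT116, with a background of 22.6% higher and 22.0% lower. FADS2 was the 1 gene lower in all 3 (background 7.11%).

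**Figure D1:**
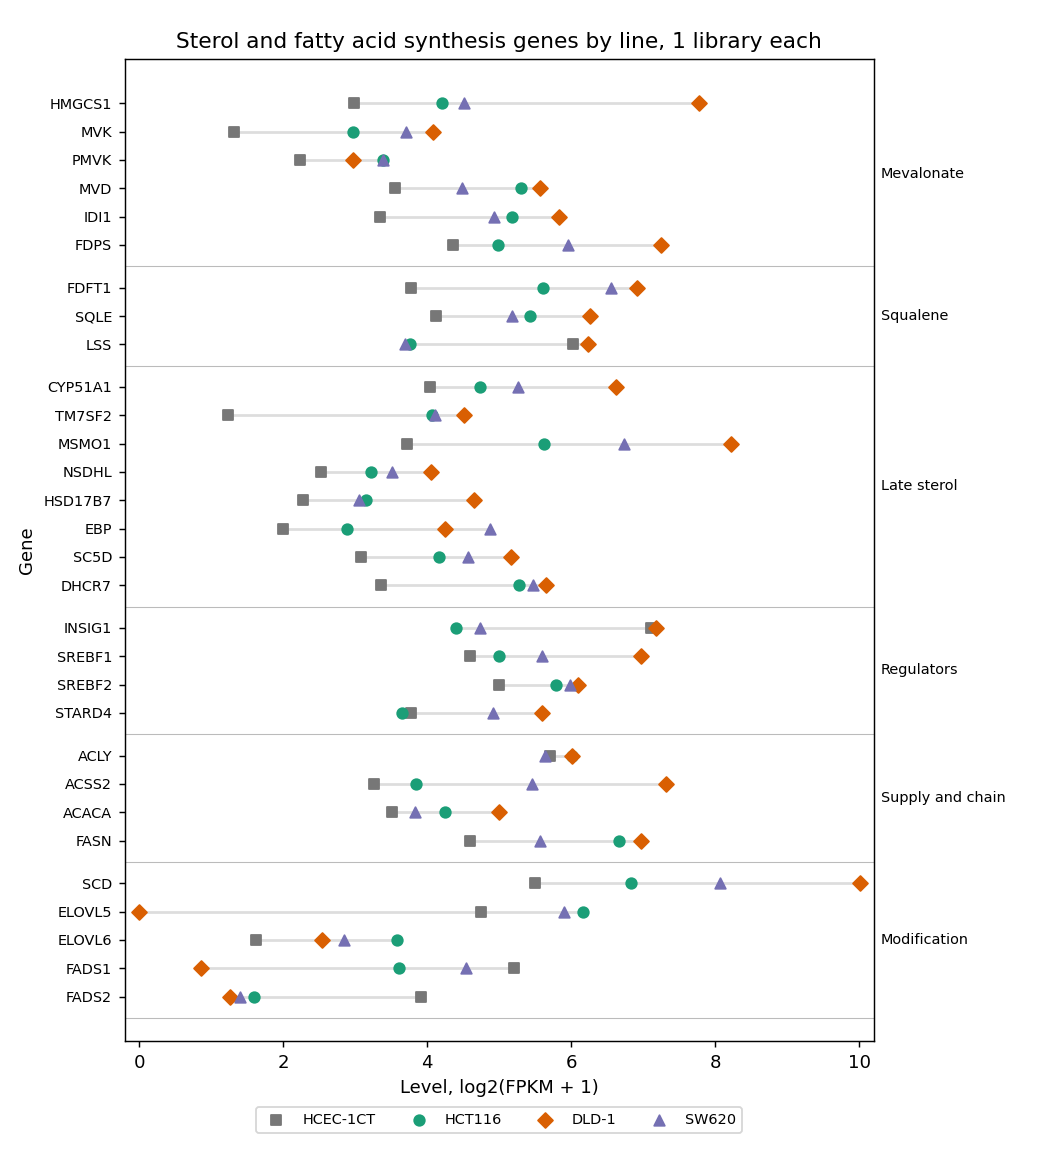
Level of the 30 genes, as log2 of FPKM + 1, with a point for each line's single library and genes grouped by role. DLD-1 is highest for 24 genes and HCEC-1CT lowest for 23. FADS1 and FADS2 are highest in HCEC-1CT, and ELOVL5 is listed at 0 in DLD-1. INSIG1, LSS, STARD4 and ACLY are highest in DLD-1 but lowest in another cancer line. PMVK, EBP and ELOVL6 are lowest in HCEC-1CT but highest in a cancer line other than DLD-1.

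DLD-1 had the highest level for 24 of the 30 genes, while 32.9% of all genes peaked there. These were 15 of the 17 sterol enzymes, all 4 regulators and carriers, and 5 of the 9 fatty acid enzymes. The exceptions were PMVK and EBP, highest in SW620, ELOVL5 and ELOVL6, highest in HCT116, and FADS1 and FADS2, highest in HCEC-1CT. HCEC-1CT had the lowest level for 23 genes, and for 43.2% of the background. Summed, the 30 genes came to 620, 927, 3115 and 1237 FPKM. That is 0.221, 0.306, 1.05 and 0.401% of the FPKM of nuclear protein-coding genes. By role, 11, 15 and 13 of the 17 sterol enzymes were higher and 1, 0 and 1 lower, with median ratios of 1.23, 2.37 and 1.54. Of the 9 fatty acid enzymes 4 were higher in each line, and 2, 3 and 1 lower, with medians of 0.72, 0.92 and 0.97. SCD alone carried much of the DLD-1 sum, and without it the shares were 0.205, 0.268, 0.706 and 0.314%, in the same order.

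**Figure D2:**
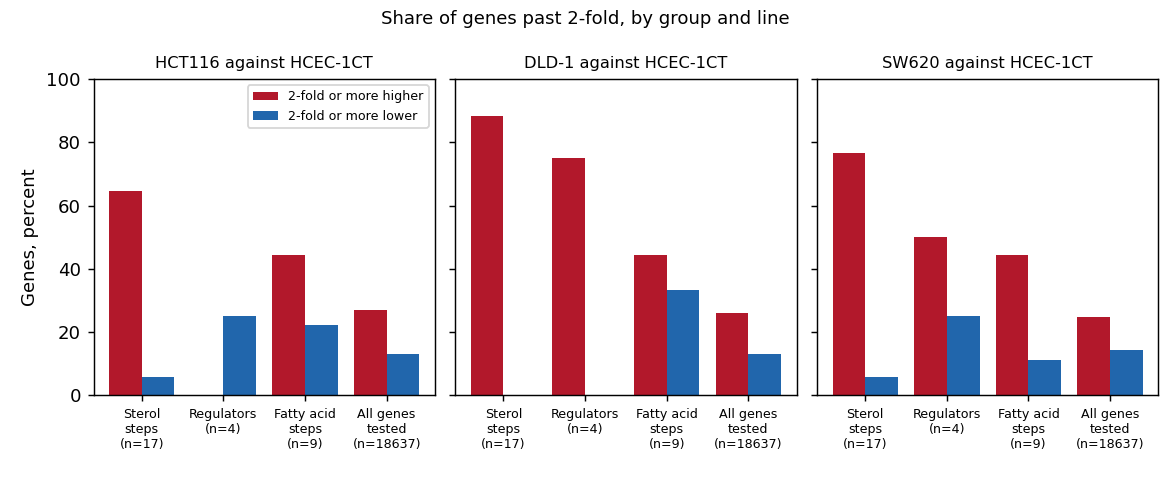
Percent of genes at least 2-fold higher (red) and lower (blue) than HCEC-1CT, with a panel for each cancer line and a pair of bars for each of the 17 sterol enzymes, the 4 regulators and carriers, the 9 fatty acid enzymes and all 18637 background genes. The red bar of the sterol enzymes is the tallest in every panel.

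Most of these genes hold a shared short sequence near their start. Promoter windows of 250 bases before to 50 bases after the start, from RefSeq on GRCh38.p14, matched 27 of the 30 genes; FASN, FDFT1 and SQLE had no entry. The letters CCAAT (or ATTGG, the same on the opposite strand), the core bound by the factor NF-Y that works beside SREBP factors at many sterol genes, were present in at least 1 window of 22 of the 27 genes, or 81.5%, and of 42.8% of the 11144 background genes with an entry. Counted by window, since a gene can have several, they were in 26 of the genes' 37 windows and in 34.6% of all 35116 windows. They occurred at least 2 times in 15 of the 27, against 15.7% of those genes. A sterol regulatory element of the form TCACNCCAC, searched on both strands, was present in 1 of the 27, SREBF2, against 1.51% of the genes with an entry. The fixed form TCACCCCAC was in SREBF2 too, against 0.556%. These are matches of letters in this window alone, and no overlap between the motifs was found in the printed stretches. SREBF2 is printed because it holds the element; MSMO1, TM7SF2 and SCD, with the highest median ratios of the 27 genes with an entry, and INSIG1 and LSS, with a pattern of their own, were chosen after their values were seen. Capitals mark the element and the CCAAT or ATTGG letters, and each stretch runs 5′ to 3′ and is the window trimmed to end at the base before the gene start in the deposited table. For MSMO1 this leaves 3 of its 4 CCAAT matches.
SREBF2, chr22:41832855-41833078, plus strand: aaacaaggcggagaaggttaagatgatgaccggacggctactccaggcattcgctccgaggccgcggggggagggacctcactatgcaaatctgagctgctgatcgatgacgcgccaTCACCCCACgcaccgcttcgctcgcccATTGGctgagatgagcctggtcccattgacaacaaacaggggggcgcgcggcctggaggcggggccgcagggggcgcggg
MSMO1, chr4:165327419-165327622, plus strand: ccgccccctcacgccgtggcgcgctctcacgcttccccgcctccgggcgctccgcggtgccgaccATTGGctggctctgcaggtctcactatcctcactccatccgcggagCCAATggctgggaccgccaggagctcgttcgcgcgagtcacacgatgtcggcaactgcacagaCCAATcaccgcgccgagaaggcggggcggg
TM7SF2, chr11:65111622-65111844, plus strand: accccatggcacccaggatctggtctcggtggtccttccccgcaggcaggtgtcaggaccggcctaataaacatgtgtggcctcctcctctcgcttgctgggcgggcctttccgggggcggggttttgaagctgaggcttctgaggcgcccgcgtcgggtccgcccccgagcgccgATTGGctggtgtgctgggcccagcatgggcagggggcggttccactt
SCD, chr10:100346983-100347123, plus strand: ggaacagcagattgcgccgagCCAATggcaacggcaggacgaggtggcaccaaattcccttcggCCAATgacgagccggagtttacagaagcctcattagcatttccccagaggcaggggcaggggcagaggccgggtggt
INSIG1, chr7:155297628-155297775, plus strand: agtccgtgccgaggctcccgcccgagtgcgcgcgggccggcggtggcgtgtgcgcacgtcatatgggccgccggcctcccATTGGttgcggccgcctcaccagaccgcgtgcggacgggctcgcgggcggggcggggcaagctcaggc
LSS, chr21:46228825-46229024, minus strand: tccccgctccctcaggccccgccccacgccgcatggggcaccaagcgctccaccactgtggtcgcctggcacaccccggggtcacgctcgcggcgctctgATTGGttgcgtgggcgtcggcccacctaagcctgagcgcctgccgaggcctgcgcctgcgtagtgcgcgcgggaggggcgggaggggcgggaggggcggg

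The mevalonate steps, 6 enzymes, were all highest in a cancer line and all lowest in HCEC-1CT. HMGCS1, which joins acetyl-CoA units into HMG-CoA (chr5:43289395-43313512, minus strand, ENSG00000112972), stood at 6.88, 17.5, 217 and 21.9 FPKM. DLD-1 alone lay far above the rest: 31.6 times HCEC-1CT, 12.4 times HCT116 and 9.93 times SW620. Its ratios were 1.23, 4.79 and 1.54, so the other 2 cancer lines passed 2-fold but not 4-fold. MVK, mevalonate kinase, stood at 1.48, 6.80, 16.0 and 12.1 FPKM, with log2 ratios of 1.65, 2.77 and 2.40. PMVK, the kinase of the next step, stood at 3.72, 9.41, 6.84 and 9.43 FPKM, and it is the sterol enzyme with the smallest ratio in DLD-1 apart from LSS, 0.73.

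MVD, the decarboxylase that makes isopentenyl diphosphate, stood at 10.7, 38.4, 46.2 and 21.4 FPKM, higher in HCT116 (1.75) and DLD-1 (2.01) and just short of 2-fold in SW620 (0.93). IDI1, the isomerase that follows, stood at 9.17, 35.3, 55.7 and 29.3 FPKM. It was higher in all 3 lines at the gene level (1.83, 2.48 and 1.58), and the transcripts behind that total differed between lines, as given further on. FDPS, which makes farnesyl diphosphate, stood at 19.5, 30.8, 150.5 and 61.3 FPKM. It was 4.89 times higher in DLD-1 than in HCT116, and its ratio of 0.63 in HCT116 was under 2-fold.

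At the squalene steps FDFT1 and SQLE were higher in all 3 cancer lines and LSS was not. FDFT1, squalene synthase (ENSG00000079459), was highest in DLD-1 (119.7 FPKM) and lowest in HCEC-1CT (12.6 FPKM), with log2 ratios of 1.84, 3.15 and 2.78. SQLE, the epoxidase that puts oxygen on squalene (ENSG00000104549), stood at 16.3, 41.9, 75.5 and 35.2 FPKM, with ratios of 1.31, 2.14 and 1.06. SW620 passed 2-fold there by a small margin.

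LSS, which closes the ring to lanosterol (chr21:46188141-46228824, minus strand, ENSG00000160285), stood at 63.9, 12.6, 73.9 and 11.9 FPKM. HCEC-1CT and DLD-1 lay close together, and HCT116 and SW620 lay together below them, with log2 ratios of -2.26, 0.21 and -2.33. LSS was the 1 sterol enzyme lower than HCEC-1CT in any cancer line. Transcripts annotated as coding held 27.9, 46.7, 25.7 and 74.4% of its FPKM, so SW620 was the 1 library in which they were the larger share. Their own sum was 17.8, 5.88, 19.0 and 8.87 FPKM, the same order of pairs with smaller ratios (-1.45, 0.09 and -0.93).

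All 8 late sterol enzymes, which take lanosterol to cholesterol, were lowest in HCEC-1CT. CYP51A1, the first demethylase, stood at 15.4, 25.7, 97.8 and 37.3 FPKM, with ratios of 0.70, 2.59 and 1.22. Its exons overlap AC000120.2 and AC000120.3 on the same strand, and its 3 pseudogenes reached at most 0.726 FPKM. TM7SF2, a sterol reductase (chr11:65111845-65116384, plus strand, ENSG00000149809), stood at 1.35, 15.8, 21.8 and 16.3 FPKM. It was the 1 gene of the 30 at least 4-fold higher on the ratio scale in all 3 lines (background 2.68%). Its ratios of 2.84, 3.28 and 2.88 were nearly level among them. The exons of TM7SF2 overlap those of its neighbour VPS51 on the same strand, so some reads cannot be told apart. Of the 30 genes, 14 have exons that overlap another gene and 5 have a pseudogene by symbol.

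MSMO1, the methyl sterol oxidase (chr4:165327623-165343160, plus strand, ENSG00000052802), was graded over the lines, with log2 ratios of 1.89, 4.49 and 3.01. In DLD-1 it was 6.17 times HCT116 and 2.82 times SW620. NSDHL and HSD17B7, which act after it in removing the methyl groups, had smaller ratios. NSDHL stood at 4.78, 8.31, 15.6 and 10.4 FPKM and passed 2-fold on the ratio scale in DLD-1 only (1.52). In plain FPKM its SW620 level was 2.17 times that of HCEC-1CT. HSD17B7 stood at 3.84, 7.91, 24.0 and 7.32 FPKM and likewise passed in DLD-1 only (2.37), with HCT116 at 2.06 times HCEC-1CT. It has pseudogenes, the higher of which reached 4.47 FPKM in a library, so its low values are less certain.

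EBP, the isomerase, stood at 2.98, 6.37, 18.0 and 28.3 FPKM, and was the late enzyme highest in SW620, with ratios of 0.89, 2.25 and 2.88. SC5D, the desaturase before the last steps, stood at 7.46, 16.9, 34.7 and 22.7 FPKM, with ratios of 1.08, 2.08 and 1.48. DHCR7, the reductase that finishes one branch, stood at 9.29, 37.9, 49.3 and 43.4 FPKM. Its ratios of 1.92, 2.29 and 2.11 put the 3 cancer lines at nearly 1 level, as for TM7SF2 and unlike HMGCS1 or MSMO1.

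None of the 4 regulators and carriers was higher in all 3 cancer lines: 0, 3 and 2 were higher and 1, 0 and 1 lower. SREBF1, whose products drive mostly fatty acid genes (chr17:17810399-17837002, minus strand, ENSG00000072310), stood at 23.0, 30.8, 124 and 47.2 FPKM. DLD-1 was apart (ratio 2.38), SW620 sat at the 2-fold line (1.00), and HCT116 did not pass (0.40). SREBF2, which drives mostly sterol genes (chr22:41833079-41907308, plus strand, ENSG00000198911), stood at 30.8, 54.1, 67.1 and 62.1 FPKM. The cancer lines were level with each other, and DLD-1 alone passed 2-fold on the ratio scale, by a small margin. SW620 had a ratio of 0.99, or 2.01 times HCEC-1CT in plain FPKM, and HCT116 a ratio of 0.79. STARD4, a carrier of cholesterol between membranes, stood at 12.7, 11.6, 47.4 and 29.3 FPKM: higher in DLD-1 (1.82) and SW620 (1.15), with HCT116 near HCEC-1CT (-0.12). Over coding transcripts alone neither SREBF2 in DLD-1 nor STARD4 in SW620 passed, as given further on.

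INSIG1, the brake on SREBP processing (chr7:155297776-155310235, plus strand, ENSG00000186480), stood at 136, 20.02, 144 and 25.6 FPKM. It split the lines as LSS did: HCEC-1CT and DLD-1 high, HCT116 and SW620 low, with ratios of -2.71, 0.07 and -2.37. INSIG1 and LSS were the 2 of the 30 genes with HCT116 and SW620 each at least 4-fold below both other lines. In the background 51 genes, or 0.274%, did so, and at 2-fold 256, or 1.37%; this pattern was picked after the values were seen. In HCEC-1CT, INSIG1 was thus at the level of DLD-1 while HMGCS1, MSMO1 and FDFT1 were at their lowest. The coding transcripts of INSIG1 held 92.2, 98.3, 92.0 and 97.5% of its FPKM. LSS met the 4-fold pattern over all transcripts only: its coding transcripts had ratios of -1.45 in HCT116 and -0.93 in SW620.

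Fatty acid supply and chain building, 4 enzymes, were all highest in DLD-1. ACLY, which splits citrate into acetyl-CoA, stood at 51.4, 63.4, 63.6 and 48.9 FPKM, and was the 1 gene of the 30 under 2-fold in every line (background 33.9%). ACSS2, which makes acetyl-CoA from acetate (chr20:34872146-34927962, plus strand, ENSG00000131069), stood at 8.61, 13.4, 158 and 42.9 FPKM. Its FPKM in DLD-1 was 18.4 times that in HCEC-1CT, where that of ACLY was 1.24 times. ACSS2 passed 2-fold in DLD-1 (4.05) and SW620 (2.19) and not in HCT116 (0.58).

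ACACA, which makes malonyl-CoA, stood at 10.4, 17.9, 30.8 and 13.3 FPKM and passed in DLD-1 only (1.47). FASN, the synthase that builds palmitate (chr17:82078333-82098332, minus strand, ENSG00000169710), stood at 23.1, 100.5, 125 and 46.2 FPKM. HCT116 and DLD-1 were close and high, with ratios of 2.08 and 2.38. SW620 fell just short of 2-fold on the ratio scale (0.97), at 2.00 times HCEC-1CT in plain FPKM. FASN and TM7SF2 were the 2 genes at least 4-fold higher on the ratio scale in HCT116 (background 9.04%).

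The enzymes that modify fatty acids did not share a direction. SCD, which makes oleate (chr10:100347124-100364834, plus strand, ENSG00000099194), was the most abundant of the 30 genes per length in every cancer line, reaching 1029 FPKM in DLD-1. Its ratios were 1.33, 4.51 and 2.56, and DLD-1 was 9.12 times HCT116 and 3.86 times SW620. ELOVL6, which lengthens palmitate, stood at 2.07, 10.9, 4.84 and 6.15 FPKM, with ratios of 1.96, 0.92 and 1.22, so DLD-1 was here the lowest of the cancer lines.

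ELOVL5, which lengthens polyunsaturated fatty acids (chr6:53267398-53349179, minus strand, ENSG00000012660), stood at 25.8, 70.5 and 58.8 FPKM in HCEC-1CT, HCT116 and SW620 and was listed at 0 in DLD-1. All 7 of its transcripts were listed at 0 there. Of 1646 background genes with at least 20 FPKM in each other line, ELOVL5 was the 1 listed at 0 in DLD-1 (0.0608%). This search was not among the planned rules. Run for the other libraries, it found 12 of 2021 genes in HCEC-1CT (0.594%), 2 of 1653 in HCT116 (0.121%) and 1 of 1621 in SW620 (0.0617%). A listed 0 can be a failed estimate as well as absent RNA, and the files do not tell these apart. None of 10 housekeeping genes was at 0 in any library, and the neighbouring genes were measured in DLD-1: FBXO9 at 22.2, 23.9, 25.0 and 19.0 FPKM and GCLC at 9.31, 32.3, 22.0 and 30.7 FPKM. ELOVL5 was the 1 gene of the 30 higher in some cancer lines and lower in another (background 1.70%).

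FADS1 and FADS2, the neighbouring desaturases of polyunsaturated fatty acids, were highest in HCEC-1CT. FADS1 (chr11:61799625-61829318, minus strand, ENSG00000149485) stood at 36.0, 11.2, 0.808 and 22.2 FPKM, with ratios of -1.60, -4.36 and -0.67. DLD-1 was lowest by far, at 0.0364 times SW620. FADS2 (chr11:61792980-61867354, plus strand, ENSG00000134824) stood at 14.1, 2.02, 1.41 and 1.63 FPKM, low and level in the cancer lines, with ratios of -2.32, -2.65 and -2.52. The exons of FADS1 and FADS2 overlap on opposite strands, those of FADS2 overlap FEN1, and whether counting used strand is not given, so reads of the overlap cannot be told apart.

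**Figure D3:**
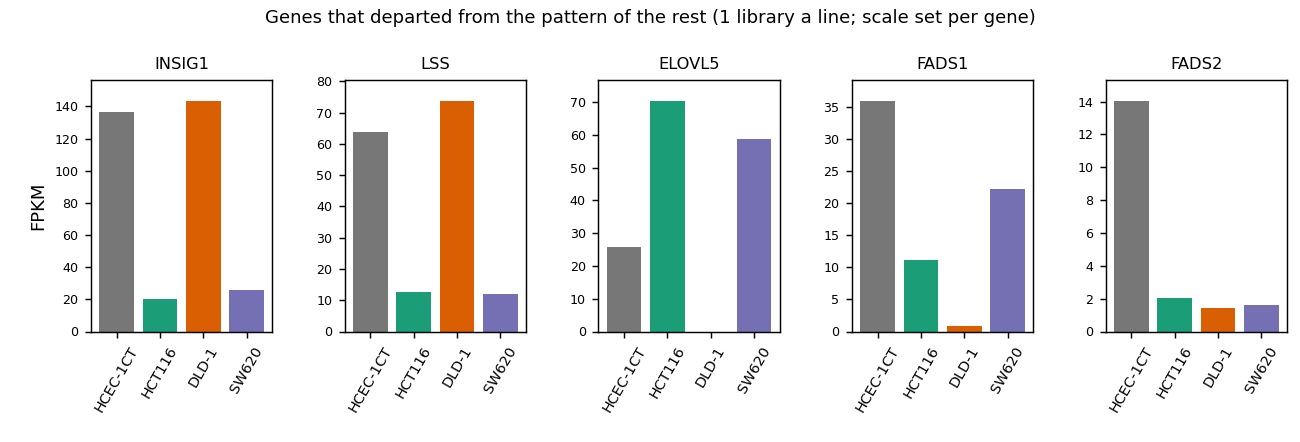
FPKM per line, on linear axes that start at 0 and are set for each gene, of genes that depart from the order of the rest. INSIG1 and LSS are high in HCEC-1CT and DLD-1, ELOVL5 and FADS1 are lowest in DLD-1, and FADS2 is low in all 3 cancer lines. ELOVL5 is listed at 0 in DLD-1, so no bar is seen there.

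Between the cancer lines, DLD-1 stood above the other 2 and HCT116 and SW620 were nearer each other. Against HCT116, 14 of the 30 genes were 2-fold higher in DLD-1 and 3 lower (background 18.1% and 16.4%). Against SW620, 14 were higher in DLD-1 and 2 lower (18.6% and 14.3%). Between SW620 and HCT116, 5 were higher and 1 lower in SW620 (12.2% and 14.2%). The widest folds of DLD-1 over HCT116 were those of HMGCS1 (12.4 times), ACSS2 (11.8 times) and SCD (9.12 times). EBP was the 1 enzyme more than 4 times higher in SW620 than in HCT116, by 4.44 times, and FASN the 1 lower, at 0.46 times. DLD-1 also had the highest summed proliferation genes, as given above, and that link was not tested.

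The same counts were taken for genes of neighbouring routes. Of 82 that passed the filter, all 3 cancer lines were higher for 8 and lower for 5, next to the 9.35% and 7.11% of the background. Of 4 other sterol genes, 2 were higher in all 3 lines and none was lower in any. ERG28, a scaffold of the late steps, stood at 1.61, 11.2, 23.4 and 15.6 FPKM, and ACAT2, which supplies acetoacetyl-CoA, at 3.37, 8.92, 32.0 and 13.0 FPKM. In the branches that use farnesyl diphosphate for ubiquinone, dolichol and prenyl groups, 1 of 9 was higher in all 3 (PDSS1, for ubiquinone, at 0.497, 4.43, 7.93 and 3.44 FPKM), and 7 were under 2-fold in every line (background 33.9%).

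Of 8 genes that retain, cleave or degrade proteins of the SREBP pathway, 7 were under 2-fold in all 3 lines (background 33.9%), among them SCAP at 32.3, 31.3, 25.4 and 28.5 FPKM. INSIG2, the relative of INSIG1, stood at 34.9, 15.4, 22.9 and 48.2 FPKM and was lower in HCT116 only. It did not share the split of INSIG1, since its highest level was in SW620.

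Of 24 other fatty acid genes, 2 were higher and 4 lower in all 3 lines. TECR, the last reductase of chain elongation, stood at 17.6, 89.4, 48.3 and 93.0 FPKM, and MLXIPL, a glucose-responsive factor, was listed at 0 in HCEC-1CT and stood at 19.3, 5.84 and 7.41 FPKM in the cancer lines. ACSL4, which activates polyunsaturated fatty acids, stood at 516, 19.2, 10.1 and 42.0 FPKM. ELOVL2, ELOVL4 and HACD4 were also lower in all 3 lines, at no more than 2.14 FPKM in HCEC-1CT and 0.119 FPKM elsewhere.

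Storage and glycerolipid genes gave 1 higher and 1 lower of 11. The lipid droplet coat gene PLIN2 stood at 333, 10.5, 0.665 and 119.8 FPKM, so HCEC-1CT was highest and DLD-1 lowest, the reverse of most synthesis enzymes. DGAT2, which makes triglyceride, stood at 0.575, 3.33, 4.54 and 5.995 FPKM. Of 12 genes of sterol transport and its control, 2 were higher in all 3 lines, LIPA, the lysosomal lipase, at 15.3, 35.2, 33.9 and 36.4 FPKM and LRP8, a lipoprotein receptor, at 3.26, 8.42, 9.89 and 13.8 FPKM. Of 14 fatty acid oxidation genes none was higher or lower in all 3, although 10 of the 14, or 71.4%, were highest in DLD-1 (background 32.9%). Of all 82 neighbouring genes 38, or 46.3%, were highest there. These include 4 of the 4 other sterol and 11 of the 24 other fatty acid genes. Of the farnesyl diphosphate branches 6 of 9 were, of SREBP pathway proteins 3 of 8, of storage genes 1 of 11 and of sterol transport genes 3 of 12. A peak in DLD-1 was thus shared with oxidation genes and not with every neighbouring route.

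The transcript makeup of the genes was read from the deposited transcript values. A switch was counted where the main transcript differed from that of HCEC-1CT and the HCEC-1CT main transcript's share of its gene was lower by 20 percentage points or more, in genes with 5 FPKM or more in both libraries. It was met by 5 of 21 genes in HCT116, 5 of 19 in DLD-1 and 6 of 21 in SW620, near the background of 18.6, 17.2 and 19.0%. With a minimum of 1 FPKM it was met by 8 of 28, 9 of 26 and 8 of 28 genes (20.9, 19.5 and 21.0%). With a loss of 50 points it was met by 0, 1 and 1, SC5D in both lines (5.43, 5.19 and 5.31%). Transcript shares are estimates from short fragments and carry more error than gene totals.

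In SC5D the transcript SC5D-201 held 89.2, 88.3, 19.6 and 6.53% of the gene, and SC5D-202, which starts downstream of it, 0.325, 0.299, 47.3 and 87.2%. HCEC-1CT and HCT116 thus used the first and SW620 the second, with DLD-1 between them. For the malonyl-CoA enzyme, ACACA-237 held 39.2% in HCEC-1CT and at most 0.297% in the cancer lines, where ACACA-231 held 65.4, 59.8 and 48.9% after 0% in HCEC-1CT. The annotated start of ACACA-237 on chromosome 17 is at base 37406780 and that of ACACA-231 at base 37359116, which is downstream on the minus strand.

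In IDI1 the transcript IDI1-205, annotated as processed and not coding, held 4.47, 67.7, 3.41 and 53.8% of the gene. The coding transcripts of IDI1 alone had log2 ratios of 0.33, 2.50 and 0.60, so its call as higher in HCT116 and SW620 rested on IDI1-205. Over coding transcripts alone, 15 genes were higher and 4 lower in HCT116 (background 29.5% and 12.4%). The counts were 21 and 3 in DLD-1 (25.4% and 13.4%) and 18 and 2 in SW620 (27.1% and 13.3%), with 10 higher in all 3 lines (10.9%). IDI1 left those 10 and FASN joined them, with coding ratios of 2.43, 2.69 and 1.26. Calls lost over coding transcripts were 5: IDI1 in HCT116 and SW620, LSS in SW620, SREBF2 in DLD-1 (from 1.10 to 0.67) and STARD4 in SW620 (from 1.15 to -0.15). Those gained were 2, ACACA in HCT116 (1.28) and FASN in SW620. EBP, for which 97.5% of FPKM was coding in HCEC-1CT and 32.8% in HCT116, had a coding ratio of -0.34 in HCT116.

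Further switches were in STARD4, FDFT1, LSS, ACSS2 and DHCR7. STARD4-212 held 48.2, 44.8, 0 and 1.21% of STARD4, and STARD4-201 took 78.8% in DLD-1. In SW620 a STARD4 transcript that is not in GENCODE 29 held 51.9%, so its type is not known. FDFT1-208, the main FDFT1 transcript in HCEC-1CT at 24.1%, held 1.73, 1.47 and 1.66% in the cancer lines, each of which had another main transcript. LSS-206, a processed transcript, held 30.9, 1.71, 28.96 and 0.803% of LSS, the same split of the lines as its gene total. ACSS2-211, annotated for nonsense-mediated decay, held 38.2, 0, 41.2 and 33.8%, and DHCR7-201 36.1, 59.1, 14.1 and 51.4%.

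**Figure D4:**
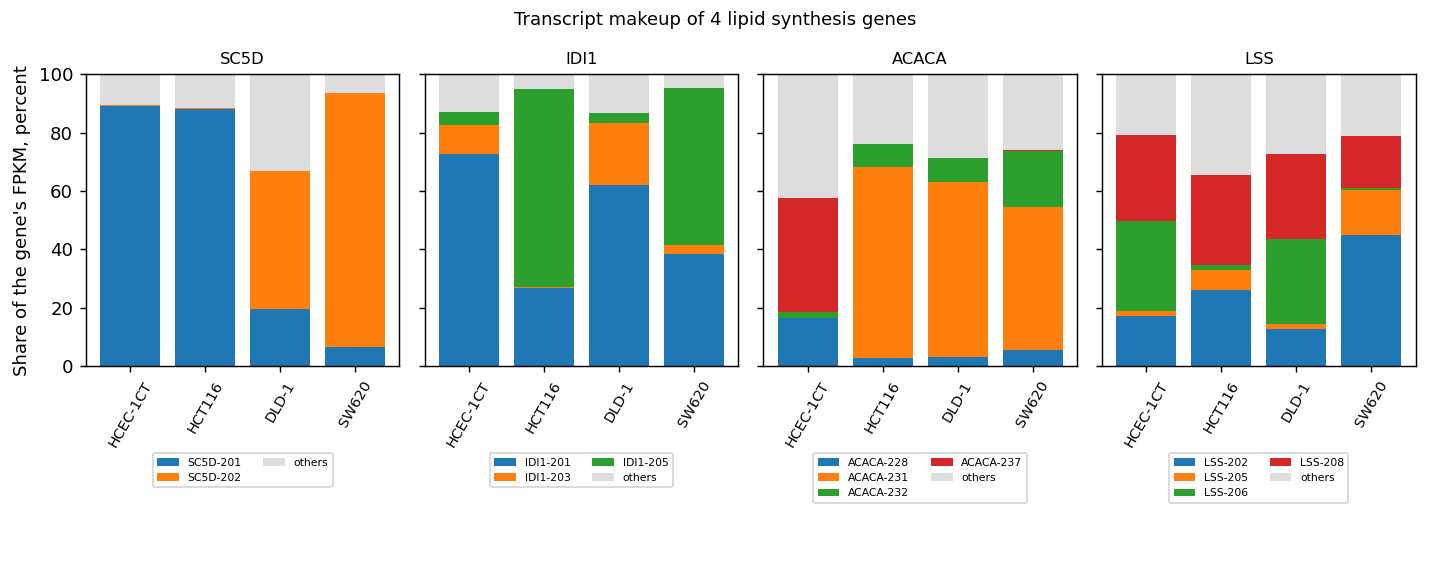
Share of the gene's FPKM, in percent, held by the larger transcripts of 4 genes that met the switch rule, as stacked segments with a bar per line, for SC5D, IDI1, ACACA and LSS; grey is all other transcripts. SC5D-201 gives way to SC5D-202 in DLD-1 and SW620, ACACA-237 to ACACA-231 in all 3 cancer lines, and IDI1-205 is large in HCT116 and SW620.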

How the data were processed

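Spheroids of 4 colon cell lines gave 1 library each. The authors deposited FPKM values for 58740 genes and 207345 transcripts. FastQC, HISAT2 and the build hg38 were used, per the submitters' processing notes; the quantifier, its annotation, filters and strand setting were not given in the sources used here. Of the value columns, 1 per table could not be matched to a sample and stayed unused. Depth, read from the spacing of low values, was about 29500000 fragments for HCEC-1CT, 25300000 for HCT116, 23300000 for DLD-1 and 28700000 for SW620, so 1 FPKM of a 2 kb transcript is about 59.0, 50.6, 46.7 and 57.5 fragments; counting error is small at several FPKM and larger under 1 FPKM.

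Ratios and counts were computed in Python 3.11.15 with pandas 2.3.3 and numpy 2.4.6, and the counting was tested on simulated data. Transcript types came from GENCODE 29, whose IDs matched 58275 genes. The members, lists and rules were chosen with earlier results of these data known. All 30 genes are named; of each neighbouring list at most 3 genes, those called in most lines with ties broken by the larger absolute median ratio, and those called the other way in all 3, could be named. SREBF2 is the promoter its rule selected; genes singled out otherwise are said to be. Alternatives were other pseudocounts, scalings, filters, fold limits and transcript rules, and coding transcripts only, which was added after seeing the data. With 1 library per line no test was made. A gene of a neighbouring list is not reported here and was left out of its counts.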

Additional observations from a re-analysis of the deposited data

Results flagged for a closer look

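The ratio to HCEC-1CT had a different sign in different cancer lines for INSIG1, LSS, ELOVL5, STARD4 and ACLY. This rule has no size limit and its share over all genes was not computed, so no weight is put on how many genes met it. With 1 library each these differences between lines were not tested. The span between the highest and the lowest of the 3 log2 ratios was 2.78 for INSIG1 and 2.53 for LSS, each near HCEC-1CT in DLD-1 and lower in HCT116 and SW620. It was 6.16 for ELOVL5, lower in DLD-1, where it is listed at 0, so that this span depends on the pseudocount of 1 and is no bound. For STARD4 it was 1.94, and HCT116 lay slightly under HCEC-1CT. For ACLY it was 0.37, with every ratio under 2-fold.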

How the results depend on the processing

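Of 66 pairs of a gene and a cancer line called at 2-fold, 65 kept their sign under every other pseudocount, scaling and transcript setting tried for single genes, and 48 stayed at 2-fold or more. The exception was STARD4 in SW620, 1.15 over all transcripts and -0.15 over coding transcripts only, an alternative chosen after seeing the data. That coding sum leaves out the STARD4 transcript of unknown type, which held 51.9% of the gene in SW620. The count of genes higher in all 3 cancer lines was 10 (background 9.35%). It was 6 with a pseudocount of 5 (3.31%), with median-ratio scaling (6.91%) and on the TPM scale (9.31%), and 1 at 4-fold (2.68%). Higher in HCT116 were 9 genes on the TPM scale (background 22.6%) and 2 at 4-fold (9.04%), and in SW620 8 at 4-fold (8.93%). On the TPM scale the background in HCT116 split into 22.6% higher and 22.0% lower, from 26.9% and 13.1%. The median of the 4 regulators in HCT116, 0.14, became -0.22 with median-ratio scaling and -0.30 on the TPM scale. Genes of neighbouring routes higher in all 3 lines numbered 3 with a pseudocount of 5, 5 with median-ratio scaling and on the TPM scale, and 2 at 4-fold. The background shares there were 3.31, 6.91, 9.31 and 2.68%. Those lower in all 3 lines numbered 2 with a pseudocount of 5 (background 3.66%), 2 with a filter of 5 FPKM (6.93%) and 1 at 4-fold (2.99%). Transcript switches numbered 8 in HCT116 and 9 in DLD-1 with a minimum of 1 FPKM, and 0, 1 and 1 in HCT116, DLD-1 and SW620 with a loss of 50 percentage points. The cause of these changes was not tested. DLD-1 was highest for 20 genes with median-ratio scaling, and for 23 on the TPM scale and with scaling to the protein-coding total, which was chosen after seeing the data. The share of all genes highest in DLD-1, 32.9% unscaled, was not computed under these scalings, so these counts have no background beside them. No paired analysis was possible because each line has 1 library, and no replicate could be left out for the same reason. With 1 library per line the spread between replicates is not known.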
